A study of Mus musculus with 2 samples.

Results

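A set of 10 genes that activate glucocorticoid hormone or respond to it was followed in the airway epithelium of the fetal mouse lung. They are the enzymes Hsd11b1 and Hsd11b2, the receptor co-chaperone Fkbp5, and the response genes Tsc22d3, Per1, Zbtb16, Sgk1, Dusp1, Klf9 and Klf15. Members were found on a two-colour oligonucleotide array as every gene probe that carried the symbol or a former symbol of a member. By this rule 9 of the 10 genes had a probe, of 19748 named genes on the array, and no probe carried the name Zbtb16 or a former symbol of it. The 9 genes had 16 probes, 2 of them under the former symbol Sgk. Of these, 15 gave a ratio at both ages and 1, a second probe named Sgk, was not well above background at either. It counts as a member probe by its name in the file, and whether it measures Sgk1 is not known.

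The samples were wild-type male fetuses of the CD-1 strain, an outbred stock, with no transgene or treatment named in the labels. The 2 groups were E14.5 (embryonic days after conception), when the airways are still branching, and E18.5, shortly before birth. Each group was the laser-cut epithelium of the airways inside the lobes, collected from 1 entire lung. The E14.5 RNA carried Cy3 (green) and the E18.5 RNA carried Cy5 (red) on the same array, with no dye swap, so dye and age cannot be told apart and no difference has a replicate check.

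Glucocorticoids act through a cytosolic receptor, Nr3c1, which is held by a chaperone complex until it binds hormone and then enters the nucleus to bind DNA. The hormone is also controlled inside the cell: Hsd11b1 turns inert 11-dehydrocorticosterone back into active corticosterone, and Hsd11b2 runs the opposite reaction. In the fetal lung this hormone is known for advancing maturation towards birth, including surfactant production and the clearance of lung liquid.

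Levels are given as normalized intensities of a probe in arbitrary units, after background correction and loess normalization within the array. Differences are log2 ratios of E18.5 over E14.5, so that 1 is a doubling and negative values are lower at E18.5. Probes of a gene can differ, so every probe is given for the members. Other genes are given by their brightest probe, with the probe farthest from it where that differs clearly. Since bulk material was measured, a change in the share of a cell type and a change in RNA per cell cannot be told apart.

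Hsd11b1, Klf15, Klf9 and Sgk1 exceeded a 2-fold increase from E14.5 to E18.5 by the brightest probe of each gene. No member was at least 2-fold lower, and Hsd11b2, Fkbp5, Tsc22d3, Per1 and Dusp1 lay within 2-fold. These 4 of 9 members stood beside 17.3% of 17244 measured genes that were at least 2-fold higher, the 0 of 9 beside 10.1% that were at least 2-fold lower, and the 5 of 9 beside 72.6% within 2-fold. By probe, 6 of the 15 were at least 2-fold higher, beside 13.7% of all probes, 0 were at least 2-fold lower, beside 8.95%, and 9 lay within 2-fold, beside 77.4%. The median log2 ratio was 0.97 over the 9 members and 0.06 over all genes. The plot of signals at both ages shows how unevenly the members were spread.

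**Figure D1:**
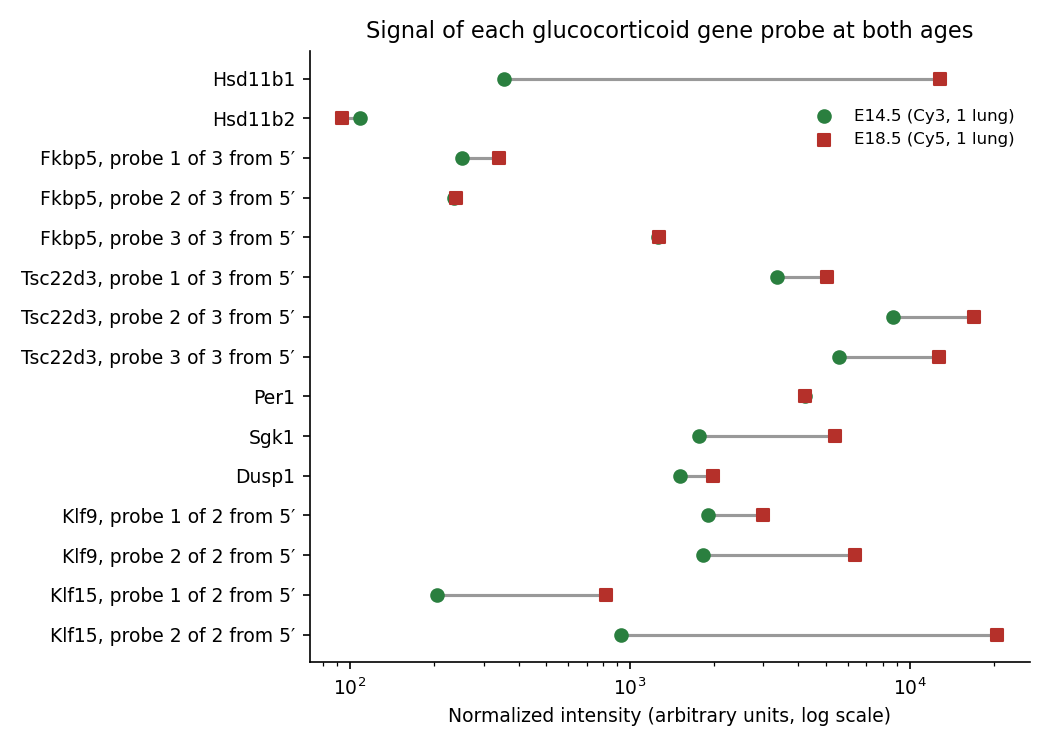
Normalized intensity (arbitrary units, log axis) of each of the 15 member probes with a ratio, at E14.5 (green circles) and E18.5 (red squares), 1 sample per age, with probes of 1 gene ordered from the 5′ end. Hsd11b1 runs from 354 to 12777 and the 3′ probe of Klf15 from 926 to 20481, while both ages of Per1 coincide (4222 and 4233).

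The enzyme that makes active hormone had the highest ratio of the members. The only Hsd11b1 probe, on chromosome 1 from 194922699 to 194922758 (mm8, minus strand), had an intensity of 354 at E14.5 and 12777 at E18.5. Signal at the later age was far above that at the earlier, 36.1-fold, a log2 ratio of 5.17. The scanner software gave 5.30 ± 0.54 (its own error estimate for the spot, on the log2 scale), and over all alternative treatments of the signals the value lay between 5.17 and 5.32. Hsd11b1 ranked 72nd from the top of all measured genes, with 0.418% of genes at or above it.

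Its opposite, Hsd11b2, was close to the floor at both ages. Its probe covers 60 bases that lie within 218 bases of chromosome 8 (108412014 to 108412231, plus strand), and so spans a gap in the genome. Its intensity was 109 at the earlier age and 94 at the later, where the dimmest probes still counted as well above background had 83.4 and 63.2. The log2 ratio was −0.21, and −0.81 ± 0.37 by the scanner software, so the direction was the same and the size was not settled. At these signals a difference of Hsd11b2 between ages was not resolved. The Hsd11b1 probe begins aaggacatgtttgtaagtaactaggaactc and the Hsd11b2 probe ctggctgctccaagacagctgcagtgacta, the first 30 of 60 bases in each case, shown because each stands for its enzyme alone.

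Among 10 other genes listed for glucocorticoid metabolism, 4 had ratios of 2-fold or more upwards, beside 17.3% of all genes, and 2 downwards, beside 10.1%. Their median was 0.36, and 1 of the 10 was known only by a bound. H6pd, which supplies NADPH to Hsd11b1 in the endoplasmic reticulum, had intensities of 4080 and 13257 at E14.5 and E18.5, a log2 ratio of 1.70 (1.11 by its lowest probe). Akr1c14, a 3-alpha-hydroxysteroid dehydrogenase, was at 5.12 (267 and 9265), and Por, the electron donor of microsomal cytochromes P450, at 4.30 (6491 and 127761). Dhrs7, a short-chain dehydrogenase, was at 2.72. The steroid reductases Akr1c18 (−1.93) and Srd5a1 (−1.07) were lower at E18.5. The size for Akr1c18, whose intensity of 146 at E18.5 was near the floor, depended on the processing and was −2.76 by the scanner software.

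The receptor itself differed little. Nr3c1 had intensities of 17789 at E14.5 and 22669 at E18.5, a log2 ratio of 0.35, and its 4 probes ranged from −0.22 to 0.35. Nr3c2, the mineralocorticoid receptor, which also binds corticosterone, was near the floor with 113 and 110. Both receptors and the chaperones that hold them made a list of 16, of which 11 stayed within 2-fold, 2 passed it upwards and 3 downwards. Over all genes these shares were 72.6%, 17.3% and 10.1%. The list median of −0.03 was 0.39 with median centring in place of loess, so the list had no settled direction. The chaperone Hsp90aa1 was at 1.5 and the phosphatase Ppp5c at 1.43 (0.54 by another probe), whereas the co-chaperones Stip1 (−1.20), Fkbp4 (−1.18, and −0.63 by another probe) and St13 (−1.14, and 0.42 by another probe) were lower at E18.5.

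Fkbp5 encodes the immunophilin that keeps the receptor in a low-affinity state and is a widely used readout of glucocorticoid action. Its probe nearest the 3′ end had intensities of 1262 and 1268, the middle probe 236 and 239, and the probe nearest the 5′ end 251 and 342. After loess normalization the log2 ratios were 0.007, 0.02 and 0.44, so the 5′ probe had the highest of the 3. The scanner software put them at −0.19 ± 0.20, −0.13 ± 0.21 and 0.30 ± 0.21, so the sign of both 3′ probes depended on the normalization and every value stayed well within 2-fold.

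**Figure D2:**
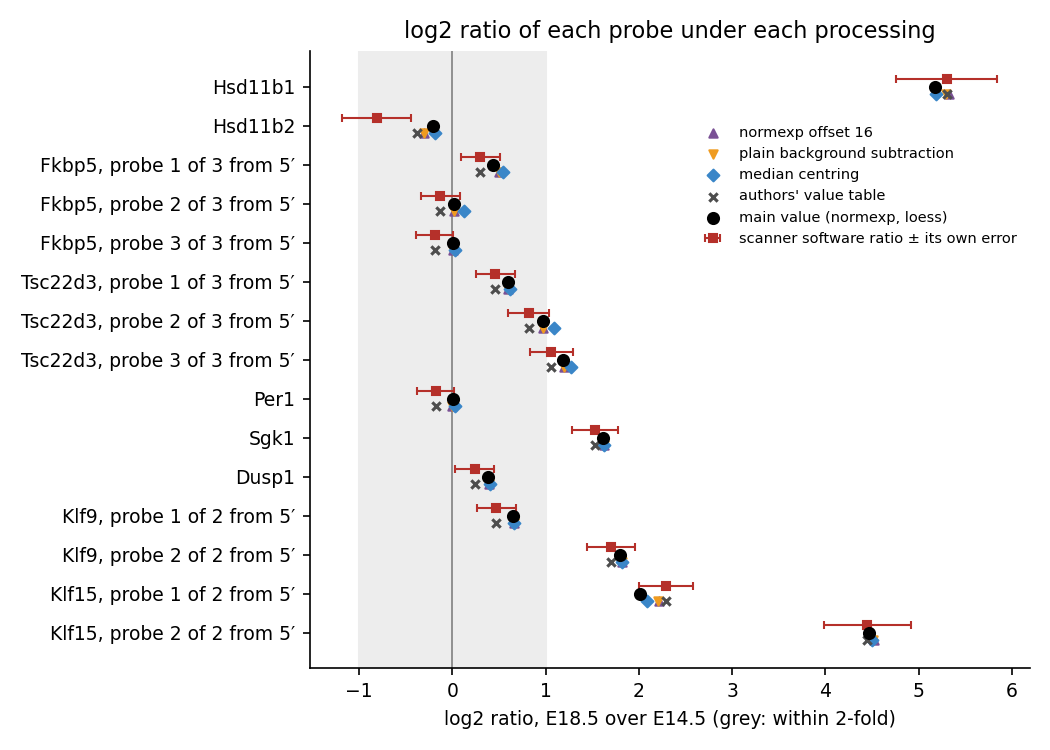
log2 ratio of E18.5 over E14.5 for each member probe (black: normexp and loess; other symbols: alternative processing; red bars: the scanner software's own error of 1 spot, not a replicate error), with the 2-fold range in grey. Hsd11b1, both Klf15 probes, Sgk1 and the 3′ probes of Klf9 and Tsc22d3 stay above 1 in every processing shown, and the middle Tsc22d3 probe crosses 1 between 0.82 and 1.09.

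Tsc22d3, or GILZ, is a leucine zipper protein that carries part of the anti-inflammatory action of glucocorticoids. From the 5′ to the 3′ end of the gene, its probes had intensities of 3354, 8671 and 5569 at E14.5 and of 5071, 16965 and 12747 at E18.5. All 3 were higher at E18.5, with log2 ratios of 0.60, 0.97 and 1.19. The brightest probe, 1.96-fold higher, lay just short of 2-fold and the 3′ probe, 2.29-fold higher, just past it. With median centring the brightest probe came to 1.09 and with the scanner software to 0.82 ± 0.22. A share of 17.9% of genes had a higher ratio than Tsc22d3.

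Sgk1, the serum- and glucocorticoid-regulated kinase, is known for keeping the epithelial sodium channel at the cell surface. The probe for its reference transcript, on chromosome 10 from 21689000 to 21689059 (mm8, plus strand), had intensities of 1763 at E14.5 and 5386 at E18.5. Signal at the later age was 3.06-fold that at E14.5, a log2 ratio of 1.61 that lay between 1.53 and 1.63 under the alternatives, with a scanner error of 0.25. The other probe named Sgk, designed to a cDNA upstream at 21588160 to 21588219, had raw signals of 97.1 and 85.3 over local backgrounds of 47.5 and 51.0 and gave no ratio.

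Promoter windows, from 250 bases before to 50 after a transcript start, came from RefSeq (GRCm38.p6) and held 16 windows of 8 members. Sgk1, Tsc22d3 and Per1 had several windows each, and Hsd11b2 and Zbtb16 had none. All windows were searched on both strands for the palindromic glucocorticoid response element (AGAACA, any 3 bases, then TGTTCT) and its hexamer AGAACA (every full element holds it on both strands). The cAMP response element TGACGTCA and the E-box CACGTG were searched in the same way. The full element was found in 3 of 32851 windows (0.00913%), and 1 of these was a window of Sgk1, at chr10:21993640-21993939 (plus strand). There it lay 189 bases before the transcript start. The other Sgk1 windows held no full element, and which start gives the measured Sgk1 transcript was not determined. The window with the full element is printed for that reason, with all matches in capitals (from the 5′ end, an E-box overlapping a hexamer, then the full element).
Sgk1: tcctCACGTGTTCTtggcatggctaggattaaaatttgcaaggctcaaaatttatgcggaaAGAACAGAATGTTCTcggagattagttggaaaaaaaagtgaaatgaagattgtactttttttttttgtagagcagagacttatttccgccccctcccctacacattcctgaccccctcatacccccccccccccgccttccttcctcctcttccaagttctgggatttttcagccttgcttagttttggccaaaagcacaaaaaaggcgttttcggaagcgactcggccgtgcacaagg
The other windows with the full element belonged to Acnat2 and Gm35041, for which no ratio was obtained here. The hexamer occurred in 19.0% of all windows and in 4 of the 16 member windows, 3 of Sgk1 and 1 of Tsc22d3. Neither the Hsd11b1 window nor that of Klf9 held any of the 4 motifs. A match describes these letters and is no evidence of binding.

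Klf9 and Klf15 are zinc finger transcription factors of the Krüppel-like family. Both are direct glucocorticoid targets in several tissues, and Klf15 is known for its part in amino acid catabolism. The Klf15 probe nearer the 3′ end, on chromosome 6 from 90440517 to 90440576 (mm8, plus strand), had intensities of 926 at E14.5 and 20481 at E18.5. Its neighbour 816 bases upstream, from 90439701 to 90439760, had 204 and 822. Both were clearly higher at E18.5 but to different degrees, 22.1-fold against 4.03-fold, or log2 ratios of 4.47 and 2.01. The scanner software gave 4.45 ± 0.47 and 2.29 ± 0.29, so their distance was present under both treatments. Klf15 ranked 158th from the top of all genes by its 3′ probe.

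Klf9 showed the same order with smaller ratios. Its 3′ probe, on chromosome 19 from 23232745 to 23232804, had intensities of 1828 and 6362, and the probe 801 bases upstream, from 23231944 to 23232003, had 1906 and 2998. The signals of both were higher at E18.5, at log2 ratios of 1.80 and 0.65, and the 2-fold mark fell between them. The scanner software put these at 1.70 ± 0.26 and 0.47 ± 0.21. The starts of the 4 probes are set side by side because the probe decided the size of the ratio.
Klf15, 3′ probe: tgacaggtctatttcacatcctatgaatgt
Klf15, 5′ probe: agaagaaattcgcgcggagtgaccacctct
Klf9, 3′ probe: taagtccggaactttcaaaccttgcttcgt
Klf9, 5′ probe: cgtcacaccgagttccatcccagcatgatc
The 5′ probes of both genes were open in 2 of 3 reading frames over their 60 bases. The 3′ probe of Klf15 had a stop codon in each frame, and the 3′ probe of Klf9 was open in 1.

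The Klf15 window, at chr6:90462326-90462625 (GRCm38.p6, plus strand), is printed because it held 3 E-boxes, in capitals, at 228, 172 and 3 bases before the start.
Klf15: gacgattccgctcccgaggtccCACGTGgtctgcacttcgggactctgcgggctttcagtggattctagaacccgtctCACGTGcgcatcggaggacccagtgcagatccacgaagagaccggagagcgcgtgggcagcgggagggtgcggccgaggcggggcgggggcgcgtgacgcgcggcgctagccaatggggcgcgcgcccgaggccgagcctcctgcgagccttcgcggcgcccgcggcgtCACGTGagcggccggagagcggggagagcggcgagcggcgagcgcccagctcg
E-boxes occurred in 7.15% of all windows and in 5 of the 16 member windows, in 1 window each of Fkbp5, Per1, Sgk1, Dusp1 and Klf15. By gene that is 5 of 8 members beside 8.09% of all genes, and members with several windows had more chances of a match.

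**Figure D3:**
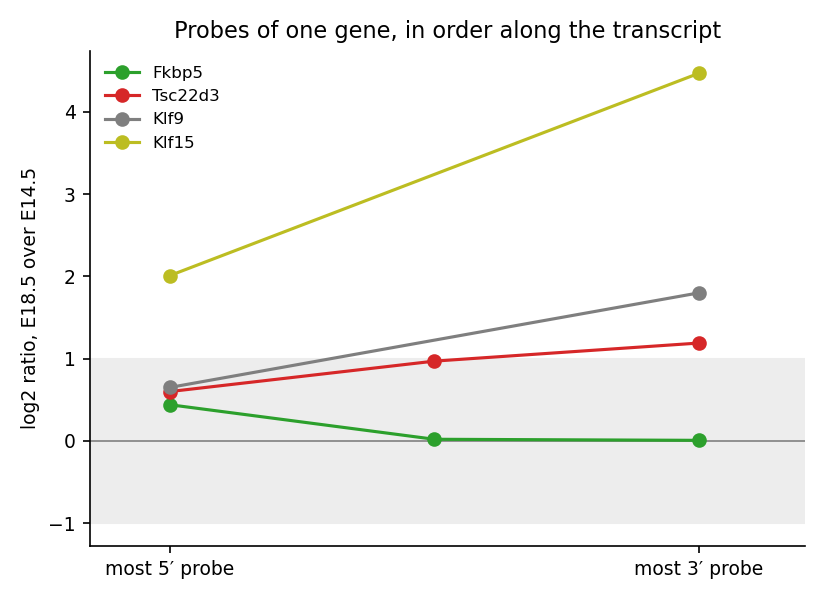
log2 ratio of E18.5 over E14.5 (vertical axis) for the probes of the 4 members with several measured probes, from the most 5′ to the most 3′ probe (evenly spaced, not to scale), with the 2-fold range in grey. Klf15, Klf9 and Tsc22d3 climb towards the 3′ end, by 2.46, 1.15 and 0.60, and Fkbp5 declines by 0.44.

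The spread between probes of a member can be set beside that of other genes. The SD between probes was 1.74 for Klf15, 0.81 for Klf9, 0.30 for Tsc22d3 and 0.25 for Fkbp5, and the median over 6890 genes with several probes was 0.33. Of 6426 genes whose most 5′ and most 3′ probes lay on 1 strand within 100000 bases, 1.35% had ends as far apart as Klf15 and 12.4% as far as Klf9. The 3′ probe had the higher ratio in 54.7% of these genes, in 72.3% of the 1053 with a 2-fold or greater increase, and in 31.3% of the 760 that were at least 2-fold lower. It was the brighter of the pair in 76.2%. These shares are descriptions, since the 2-fold groups were formed with the same probes. RNA was amplified in 1 round before labelling, and the part of probe position in the members' ratios was not tested.

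Dusp1 and Per1 are induced within minutes to hours by glucocorticoids and by many other stimuli. Dusp1, a phosphatase that switches off MAP kinases, had intensities of 1511 at E14.5 and 1973 at E18.5, a log2 ratio of 0.38 (0.24 ± 0.21 by the scanner software). Per1, a repressor of the circadian clock, had 4222 and 4233, a log2 ratio of 0.004 (−0.18 ± 0.20). Neither differed by 2-fold under any alternative, and the sign for Per1 depended on the normalization. The Dusp1 window, at chr17:26508423-26508722 (GRCm38.p6, minus strand), was the only member window with a cAMP response element, which 1.79% of all windows held. It is printed as the contrast to the Sgk1 window, with the cAMP response element 143 bases and an E-box 126 bases before the start in capitals.
Dusp1: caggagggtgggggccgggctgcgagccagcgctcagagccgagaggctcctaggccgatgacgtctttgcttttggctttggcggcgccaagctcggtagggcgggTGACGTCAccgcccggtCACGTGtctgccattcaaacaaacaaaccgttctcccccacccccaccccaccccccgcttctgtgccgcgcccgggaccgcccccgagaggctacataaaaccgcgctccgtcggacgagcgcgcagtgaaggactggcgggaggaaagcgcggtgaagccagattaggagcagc

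**Figure D4:**
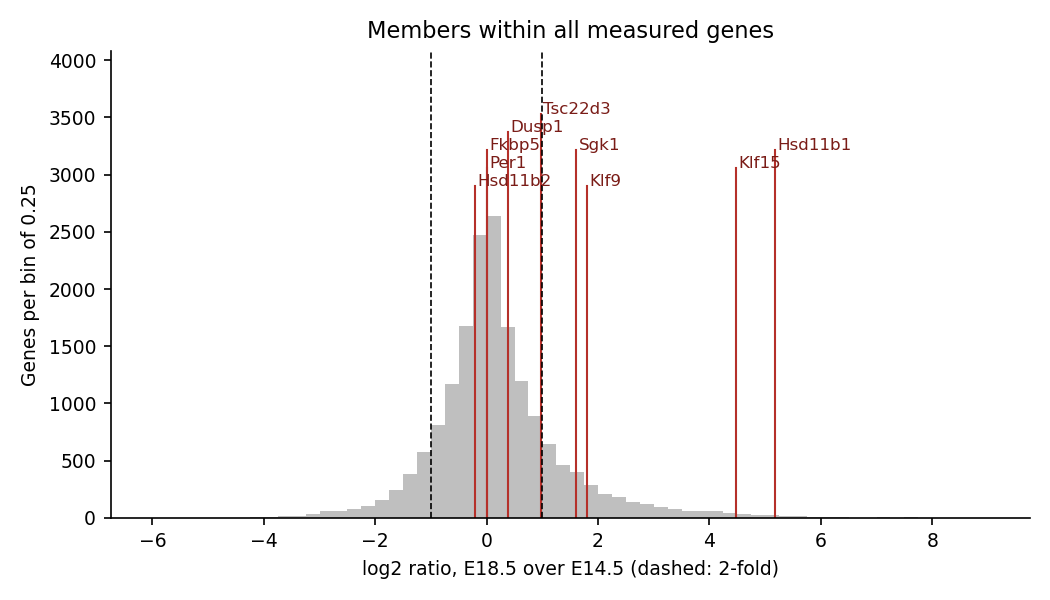
Number of genes (vertical axis, bins of 0.25) by log2 ratio of E18.5 over E14.5 for 17244 genes, with the 9 measured members as red lines and 2-fold as dashed lines. Hsd11b1 (5.17) and Klf15 (4.47) stand in the upper tail, Sgk1 (1.61) and Klf9 (1.80) past the 2-fold line, and the other 5 within it.

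Other genes linked to glucocorticoids were counted from lists. Whether the hormone regulates these genes, or the members, in the samples measured here was not tested. For comparison with both lists, 17.3% of all genes passed 2-fold upwards, 10.1% passed it downwards and 72.6% did neither. Genes known to be induced by glucocorticoids in various tissues numbered 31 with a ratio, and 20 of them stayed within 2-fold, 9 passed it upwards (13 with median centring) and 2 downwards, around a median of 0.69. The highest were Lcn2 (6.0, a secreted siderophore carrier), Mt2 (4.80, a metallothionein) and Pdk4 (3.76, 425 and 5777). Pdk4 is the kinase that spares glucose by inhibiting pyruvate dehydrogenase. Whether the Mt2 probe also binds close relatives was not checked. Ccnd2, a D-type cyclin (−1.68, and −0.56 by another probe), and Snai2, a zinc finger repressor (−1.5), were at least 2-fold lower. Fetal lung genes listed as glucocorticoid-responsive passed 2-fold upwards in 14 of 20 cases and downwards in 0 (1 with the scanner software), around a median of 1.97. They were led by Sftpd (8.33), Aqp5 (4.43, and 5.03 by the scanner software) and Scnn1a (4.15, and 1.04 by another probe), a pore subunit of the sodium channel that Sgk1 acts on. Sftpd is also made by type II and airway secretory cells, and the markers of these cells had high ratios too. Sftpa1, Sftpb, Sftpc and Abca3 stand both in the fetal lung list and among the type II markers, so these counts share genes.

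Per1 and Dusp1 belong to wider groups, read beside 17.3% of all genes at least 2-fold higher and 10.1% lower. The clock list held 18 genes, of which 6 passed 2-fold upwards and 0 downwards, around a median of 0.56. Bhlhe40 (2.45), a repressor that is also hormone- and hypoxia-responsive, Dbp (2.09) and Tef (1.77, and 0.35 by another probe), both PAR bZIP output factors, were the highest. With 1 fetus per age, the hour of collection cannot be told apart from age in these genes. Immediate early genes split, 6 of 25 passing 2-fold upwards (8 with median centring) and 4 downwards, around a median of −0.02 (0.04 with median centring). Ier3 (2.54), Egr2 (1.99, and 2.66 by the scanner software) and Junb (1.53) were higher, and Myc (−2.52, and −1.35 by another probe), Jun (−1.97) and Egr1 (−1.74) lower.

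**Figure D5:**
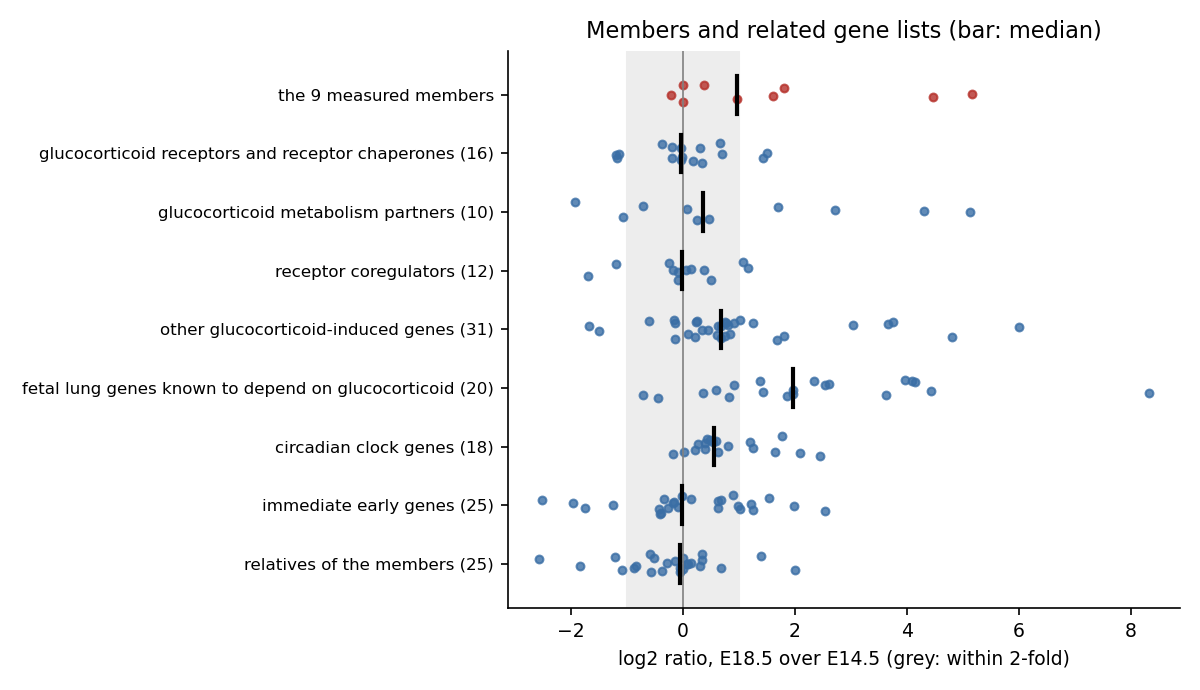
log2 ratio of E18.5 over E14.5 (horizontal axis) for the 9 measured members (red) and the genes of 8 related lists (blue, number measured in brackets), with the median of each as a black bar and the 2-fold range in grey. Medians are 0.97 for the members, 1.97 for the fetal lung genes and −0.03 for the receptors and chaperones.

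Markers of other cells moved between the same samples, and some members, such as Hsd11b1 and Klf9, are also made by fibroblasts and other cells outside the epithelium. The marker counts here and in the next paragraph stand beside 17.3% of all genes at least 2-fold higher and 10.1% lower. Of 14 mesenchyme markers, 3 were at least 2-fold higher and 2 lower, and their intensities summed to 329232 at the earlier age and 488479 at the later, a ratio of 1.48. Dpt (4.27) and Fn1 (1.35, and 0.18 by another probe) were highest, Foxf1 (−2.12, and −2.75 by the scanner software) and Lum (−1.13) lowest. Leukocyte markers were higher in 10 of 13, led by Lyz2 (6.38, and 4.32 by another probe), which alveolar cells also make, and S100a8 (4.04, and 5.41 by the scanner software, from 116 at E14.5, near the floor), with sums of 9434 and 180339. Lyz2 alone made up 146915 of the leukocyte sum at E18.5. Endothelial markers were higher in 5 of 12, led by Kdr (4.13) and Vwf (3.08, and 2.27 by another probe), with sums of 32750 and 136606, of which Kdr alone made up 71669 at E18.5. Smooth muscle markers were lower in 5 of 6, with Myh11 at −2.43 and Actg2 at −1.72 and sums of 372639 and 147345. The part of any of these cells in the members' ratios was not tested.

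Within the epithelium, airway secretory markers were higher in 7 of 8 (Scgb1a1 at 8.03, Cyp2f2 at 7.60; sums 35219 and 1180640), and ciliated markers in 6 of 7 (Hydin at 5.01, Dnah5 at 4.78, and 0.23 by another probe; sums 14915 and 126730). Type II markers were higher in 7 of 8 (Lyz1 at 7.09, Slc34a2 at 5.70, 2.38 by another probe and 6.9 by the scanner software; sums 44502 and 332421), with Etv5 at −2.78 (−2.05 by another probe, −3.43 by the scanner software). General epithelial markers were higher in 5 of 12 and lower in 1 (Krt18 at 1.59, Cdh1 at 1.34, Cldn4 at −1.17, with sums of 392724 and 639988, a ratio of 1.63). All 12 were above background at both ages, as were all mesenchyme, endothelial and smooth muscle markers. Erythroid markers went both ways, 3 higher and 3 lower of 7, with sums of 130697 and 524631. Hbb-bt was at 2.60 and Hba-a1 at 2.40, against Hbb-y at −4.35 and Hba-x at −3.65. Whether the Hbb-bt and Hba-a1 probes bind more than 1 globin copy was not checked. Of 7 markers of mesothelium and nerve, 3 were higher, led by Msln (3.13) and Upk1b (2.79), with sums of 8745 and 52112. Msln alone made up 43592 of this sum at E18.5. Whether the members' ratios follow the share of these cells was not tested.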

How the data were processed

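Airway epithelium of 1 lung per age was measured on 1 Agilent two-colour array, and both scanner outputs matched in all 115 columns and were treated as a single array. Mean and local background intensities were deposited by the authors as linear, uncorrected values, and the submitters' processing notes name Agilent Feature Extraction 9.5.3.1. The log10 ratios, their errors and the processed intensities are that software's, per the file headers, and so are flag columns of 0 or 1 on the deposited spots. Probe coordinates are on mm8, per the file headers. The authors' value table holds deposited linear intensities that equalled the processed intensity times 0.339, with a floor of 15 and medians of 129.1 and 130.2. It was not centred, and its direction follows the sample columns.

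Intensities were corrected with normexp (offset 50) and loess (span 0.3, 4 iterations; control and outlier spots at weight 0) in limma 3.58.1 under R 4.3.3, which was tested on simulated data. Loess removes a shift common to most genes. Tables were handled in Python 3.11.15. Of 41170 probes, 75.2% (E14.5) and 78.7% (E18.5) exceeded background by the scanner's own test, and 33099 were named through RefSeq. A gene's value came from its brightest detected probe, by the mean of both channels on the log2 scale, where detected means well above background in 1 channel or both. A probe above background in 1 channel only counted as a bound: its bright signal against the higher of the dim signal and the dimmest signal well above background.

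Calls were by size (2-fold) and no p-value was computed, since 1 sample per age allows none. Repeated spots of a probe had a median SD of 0.051 on the log2 scale, over 245 probes with 3 or more spots. Members and lists were chosen with earlier results of these data known. Named genes were the members, Nr3c1, Nr3c2, H6pd and, of each list, up to 3 genes (up to 2 for cell markers) farthest from 0 in each direction past 2-fold. Alternatives were the scanner ratio, an offset of 16, plain subtraction, median centring, the value table, the median over probes and probes above background in both channels.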

Additional observations from a re-analysis of the deposited data

How the results depend on the processing

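Of 75 values of member probes under 5 other treatments of the signals, 74 moved by less than 0.33, the median SD between probes of a gene, and Hsd11b2 moved from −0.21 to −0.81 with the scanner software. Of the 15 probes, 14 kept their side of 2-fold throughout and 12 their sign. The exceptions were the brightest Tsc22d3 probe (1.09 with median centring, which made 5 members at least 2-fold higher) and, by sign, Per1 and both 3′ probes of Fkbp5. Over all genes, 1738 were at least 2-fold lower, and 2637 with the scanner software, whose median log2 ratio over all genes was −0.05 against 0.06, and the cause was not tested. Of 168 values of the related lists, 159 stayed within 1.5 times or 0.33, and 9 moved. Direction of a list near 0 was not settled: the median of the receptor coregulators was −0.01, and 0.17 with median centring, and that of the immediate early genes −0.02 and 0.04. No paired analysis was possible because each age had 1 sample. Signal over background limits Hsd11b2 and Nr3c2, whose differences cannot be read at these intensities.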

Other observations

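Among 12 coregulators that nuclear receptors such as the glucocorticoid receptor recruit, 8 stayed within 2-fold, beside 72.6% of all genes, 2 passed it upwards (1 with the scanner software) and 2 downwards (1 with median centring). Nrip1, a corepressor of nuclear receptors, was at 1.17 with other probes from −0.36 to 1.52, and the coactivator Ncoa1 at 1.08. The arginine methyltransferase Carm1 (−1.69, and −0.67 by another probe) and the chromatin remodeller Smarca4 (−1.20, and −0.31 by another probe) were lower.

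Among relatives of the members by protein family, 19 of 25 stayed within 2-fold, 2 passed it upwards and 4 downwards, around a median of −0.06. Over all genes these shares were 72.6%, 17.3% and 10.1%. The relatives at least 2-fold lower numbered 6 with the scanner software and 3 with median centring. The median of the list was −0.31 with the scanner software. Tsc22d4, of the same leucine zipper family as Tsc22d3, was at 2.0, with another probe at −0.28. Dusp16, a MAP kinase phosphatase, was at 1.40, with another probe at −0.24, and Dusp9, of the same family, at −2.57, with another probe at −0.42. The immunophilins Fkbp3 (−1.84) and Fkbp10 (−1.21) were lower, beside Fkbp5 at 0.007. With the median over probes, 0 of the 25 relatives were at least 2-fold higher, so the calls for Tsc22d4 and Dusp16 rest on 1 probe each.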
